A study of Homo sapiens with 9 samples.

Results

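The genes described here are 35 targets and regulators of 2 linked stress responses, of 58219 gene identifiers counted in the series. They were chosen by symbol from knowledge of the pathways and fall into an ATF4 arm of 20 genes, built around the transcription factor ATF4 and amino acid supply, and an endoplasmic reticulum arm of 15 genes, built around the chaperones of the secretory pathway. All 35 were found by Ensembl identifier and all 35 held enough reads to be tested. Gene expression was measured by stranded sequencing of polyadenylated RNA in PLC/PRF/5, a human hepatoma cell line. The 9 samples came from stable lines that expressed the tyrosine kinase YES, as T348I (5 samples) or as wild type (WT, 4 samples), and the labels give 100 nM dasatinib as the compound in all of them. T348I changes the gatekeeper residue of the drug pocket, a position known to control drug binding. Dasatinib blocks ABL and the Src family, to which YES belongs. Untreated cells were not analysed here. T348I and WT cells alike carried an introduced YES and received the drug. The labels name 1 line for each form of YES and do not say whether it was a clone or a pool.

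In the integrated stress response, kinases that sense amino acid shortage, haem shortage, double-stranded RNA or misfolded protein phosphorylate the translation factor eIF2. General translation then slows while translation of ATF4 rises, so ATF4 activity is set largely by translation and not by the amount of its mRNA. ATF4 partners with C/EBP proteins and induces genes of amino acid synthesis, uptake and tRNA charging, together with feedback genes that limit the response. In the unfolded protein response, the sensors PERK, IRE1 and ATF6 of the endoplasmic reticulum membrane raise ATF4, splice XBP1 mRNA and induce chaperones and degradation factors. Secretory cells such as hepatocytes keep this machinery abundant.

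The samples fell into 2 sets by the spelling of the drug in their titles, the dasatinib set (3 T348I, 3 WT) and the Dasa set (2 T348I, 1 WT). What the spelling stands for, a batch or not, is not in the labels. Mitochondrial messenger RNAs took 6.16% to 7.38% of gene reads in T348I samples and 5.6% to 6% in WT samples of the dasatinib set, and 13.2% and 14.5% in T348I samples and 14.4% in the WT sample of the Dasa set. Reads in genes numbered 10381142 to 15799059 per T348I sample and 10464731 to 14118614 per WT sample, and set was a term in every test unless stated. YES1 averaged 749 ± 233 CPM (counts per 1000000 reads) in T348I samples and 354 ± 13.2 CPM in WT samples (SD, n = 5 and 4), and no T348I sample overlapped a WT sample. Its log2 ratio of T348I over WT was 0.73 in the dasatinib set and 1.45 in the Dasa set. Of 7 hepatoma markers, APOB, SERPINA1, TF and AFP held 44.6 CPM or more in every sample, ALB and APOA1 lay between 1.16 and 8.86 CPM, and TTR was at or below 0.379 CPM. Of 9 markers of leucocytes, endothelium and fibroblasts, PTPRC, CD68, VWF, COL3A1 and PDGFRB stayed under 1 CPM. PECAM1 held 1.03 to 3.54 CPM, COL1A1 2.65 to 8.18 CPM and COL1A2 0.193 to 1.23 CPM. LYZ, lysozyme, held 803 to 1404 CPM.

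The known control elements of both arms can be read in the upstream sequence of single members. The examples were picked with their fold changes known, so that members sharing an element differ in direction. The 250 bases before the RefSeq start of each gene (GRCh38.p14, the first start listed) are written 5′ to 3′ in the direction of transcription, with matches in capitals. Positions count back from -1, the base before the start.
CHAC1: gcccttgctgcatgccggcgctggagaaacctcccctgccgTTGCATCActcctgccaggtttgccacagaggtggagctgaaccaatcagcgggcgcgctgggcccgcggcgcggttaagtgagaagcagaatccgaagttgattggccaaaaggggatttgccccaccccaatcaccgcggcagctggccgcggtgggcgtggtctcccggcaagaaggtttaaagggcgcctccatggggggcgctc
ASNS: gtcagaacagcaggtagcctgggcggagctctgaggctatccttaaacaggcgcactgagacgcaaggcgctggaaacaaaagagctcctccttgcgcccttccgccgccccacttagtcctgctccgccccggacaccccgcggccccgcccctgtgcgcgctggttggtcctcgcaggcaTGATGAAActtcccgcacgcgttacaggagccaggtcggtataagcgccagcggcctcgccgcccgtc
HSPA5: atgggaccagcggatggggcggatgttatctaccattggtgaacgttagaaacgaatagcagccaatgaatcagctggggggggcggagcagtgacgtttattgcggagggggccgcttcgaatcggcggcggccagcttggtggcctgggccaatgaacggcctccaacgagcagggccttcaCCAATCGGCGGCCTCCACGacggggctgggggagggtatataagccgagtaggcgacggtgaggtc
XBP1: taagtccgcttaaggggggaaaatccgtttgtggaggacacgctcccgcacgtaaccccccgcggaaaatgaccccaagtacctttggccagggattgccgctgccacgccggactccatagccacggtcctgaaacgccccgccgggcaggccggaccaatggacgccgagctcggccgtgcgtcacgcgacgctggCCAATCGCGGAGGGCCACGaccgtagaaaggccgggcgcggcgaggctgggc
HERPUD1: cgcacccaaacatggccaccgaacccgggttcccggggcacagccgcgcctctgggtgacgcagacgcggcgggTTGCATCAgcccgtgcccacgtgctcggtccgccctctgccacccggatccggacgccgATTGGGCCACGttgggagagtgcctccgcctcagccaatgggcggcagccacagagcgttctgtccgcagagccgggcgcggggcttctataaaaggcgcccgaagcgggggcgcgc

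These stretches lie at chr15:40953221-40953470 (plus strand), chr7:97872409-97872658 (minus strand), chr9:125241344-125241593 (minus strand), chr22:28800570-28800819 (minus strand) and chr16:56931892-56932141 (plus strand). The capitals in CHAC1 (-209 to -202, opposite strand) and ASNS (-68 to -61) match TGATGNAA, the core of the C/EBP-ATF element that ATF4 binds. The capitals in HSPA5 (-66 to -48) and XBP1 (-52 to -34) match the endoplasmic reticulum stress element ERSE, CCAAT and CCACG with any 9 bases between. HERPUD1 holds a TGATGNAA match on the opposite strand (-176 to -169) and the related ERSE-II, ATTGG and CCACG with any 1 base between (-117 to -107). Both strands of 300 bases, 250 before to 50 after the start, were searched in the 33 members with an entry. TGATGNAA was found in 4 of 18 members of the ATF4 arm (CHAC1, ASNS, SLC3A2 and AARS1) and 1 of 15 of the endoplasmic reticulum arm (HERPUD1), against 3.67% of 27305 promoters. ERSE was found in 5 of 15 members of the endoplasmic reticulum arm (HSPA5, HSP90B1, CALR, CRELD2 and XBP1), against 0.0806% of all promoters, and in 0 of 18 of the ATF4 arm. ERSE-II was found in 3 of 15 (HYOU1, SDF2L1 and HERPUD1), against 0.0549% of all promoters. TGACGTGG, the core that XBP1 protein binds, was found in HYOU1, where it overlaps one of its ERSE-II matches, against 0.795% of all promoters. A match describes letters in this window and not a bound site. The members were chosen from knowledge of these pathways, so an excess over all promoters can follow from that choice and tests nothing.

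In the ATF4 arm 11 of 20 genes rose in T348I samples, 4 fell and 5 did not pass the test. Those that rose were 5 of its 6 feedback genes, 3 of its 5 transcription factors, the enzyme genes SHMT2 and MTHFD2 and the transporter gene SLC7A5, and those that fell were PHGDH, PSPH, ASNS and DDIT3. In the endoplasmic reticulum arm 4 rose, 5 fell and 6 did not pass, and the changes were small. The threshold was an edgeR adjusted p of 0.05 over all 14617 genes tested, of which 42.5% passed (20.7% higher, 21.8% lower). Members are well expressed, with 34 of 35 at a mean of at least 10 CPM, and among the 9677 tested genes at that level 50.5% passed (25.6% higher, 24.9% lower). The median log2 fold change of T348I over WT was 0.14 in the ATF4 arm and -0.02 in the endoplasmic reticulum arm, beside -0.01 over all tested genes. A change of at least 1.5-fold was found in 2 members, CEBPB and SESN2, and in 9.35% of all genes. In 4 members all 5 T348I samples lay above all 4 WT samples (10.2% of all genes) and in 0 members below (9.41%). Within both sets T348I lay above WT in 14 members (18.8% of all genes) and below in 7 (19.7%), and within the dasatinib set in 17 (21.8%) and 9 (22.9%). Within the Dasa set T348I lay above WT in 17 members, below in 16 and overlapped it in 2. With 2 T348I samples against 1 WT sample, most genes separate there whatever the genotype does. Separation in the Dasa set, here and below, is therefore a description and no replication. Without the set term 4 of the 24 calls held (CEBPB, SESN2, PPP1R15A and EDEM1). RNA from a whole culture cannot tell fewer expressing cells from less RNA per cell, and the labels do not state separate cultures within a group, so p-values measure the spread between these samples.

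**Figure D1:**
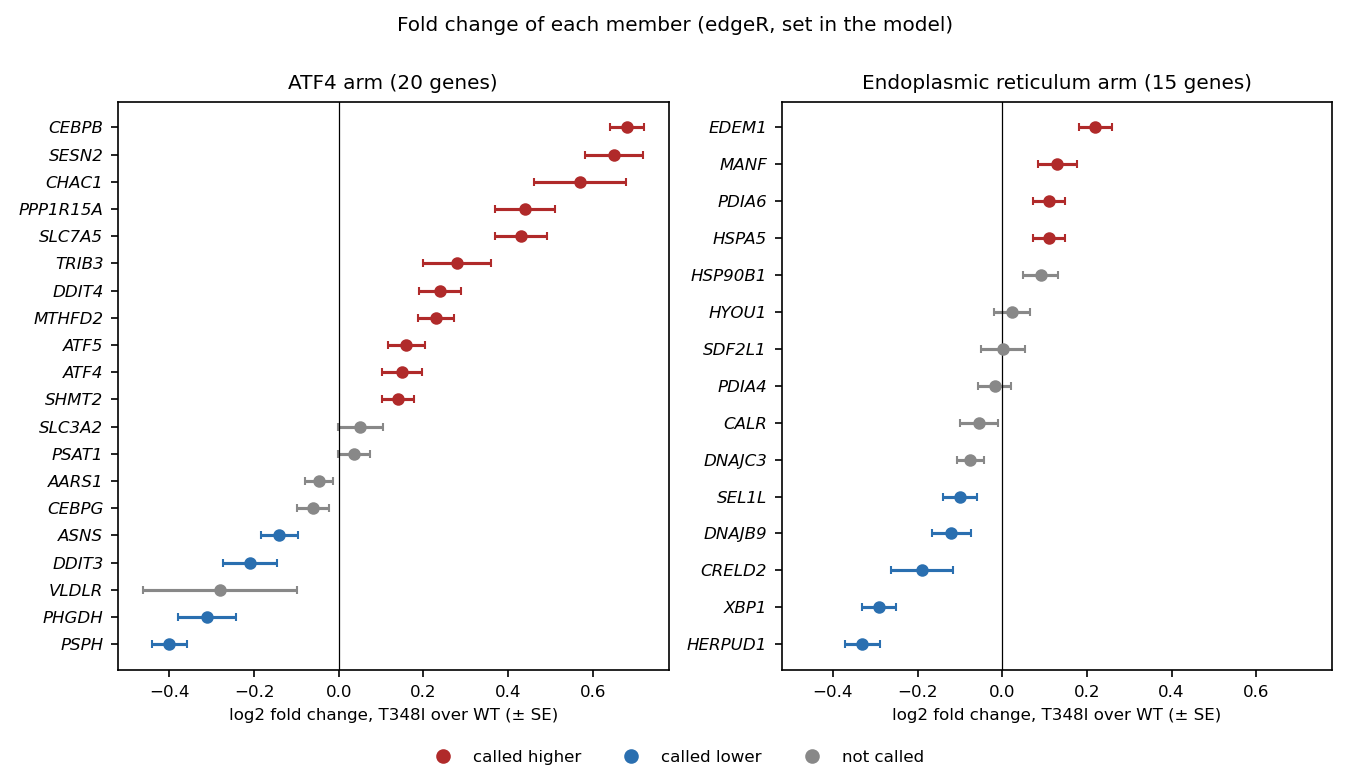
Log2 fold change of T348I over WT for each of the 20 genes of the ATF4 arm (left) and the 15 of the endoplasmic reticulum arm (right), with the standard error, from edgeR with set in the model. In the ATF4 arm 11 genes were called higher, up to 0.68 for CEBPB, and 4 lower, down to -0.40 for PSPH, while the endoplasmic reticulum arm ran from -0.33 (HERPUD1) to 0.22 (EDEM1).

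Among the transcription factors of the ATF4 arm, CEBPB showed the clearest rise and DDIT3 fell. CEBPB encodes C/EBP-beta, a partner of ATF4 that also drives acute phase and inflammatory genes in liver (chromosome 20, 50190734 to 50192689 in GRCh38, plus strand). It stood at 170.0, 179 and 172 CPM (dasatinib set) and 182 and 182 CPM (Dasa set) for T348I samples, against 116, 107 and 113 CPM (dasatinib set) and 107 CPM (Dasa set) for WT samples. Every T348I sample lay above every WT sample. For CEBPB the log2 fold of T348I over WT was 0.68 (SE 0.0399, edgeR adjusted p = 7.38e-11), and it lay between 0.64 and 0.70 under all 17 alternatives. ATF4 itself (chromosome 22, 39519695 to 39522685, plus strand) stood at 287, 286 and 280.2 CPM (dasatinib set) and 272 and 254 CPM (Dasa set) for T348I samples, against 271, 273 and 275 CPM (dasatinib set) and 205 CPM (Dasa set) for WT samples. T348I exceeded WT within each set, narrowly in the dasatinib set, and the groups overlapped when the sets were pooled. On the log2 scale ATF4 differed by 0.15 (SE 0.0469, edgeR adjusted p = 0.0149). Without WT Dasa replicate 1 it was 0.065 and the call was lost (edgeR adjusted p = 0.154), as in the dasatinib set alone.

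DDIT3 encodes CHOP, the death-promoting factor induced by ATF4 during prolonged stress. It held 27, 27.6 and 26.1 CPM (dasatinib set) and 20.4 and 20.5 CPM (Dasa set) for T348I samples, against 27.6, 34.1 and 30.2 CPM (dasatinib set) and 25.3 CPM (Dasa set) for WT samples. T348I samples lay below WT samples within each set, with the highest T348I and the lowest WT sample of the dasatinib set both at 27.6 CPM when rounded, and the pooled groups overlapped. DDIT3 had a log2 fold of -0.21 (SE 0.0643, edgeR adjusted p = 0.0111). It was -0.17 without WT Dasa replicate 1 (edgeR adjusted p = 0.0622) and in the dasatinib set alone (edgeR adjusted p = 0.0666), and -0.18 in counts made without regard to strand (edgeR adjusted p = 0.0799). ATF5, an ATF4-related factor of mitochondrial stress, rose by 0.16 log2, and CEBPG, a C/EBP partner without an activation domain of its own, had a log2 fold change of -0.06 and did not pass.

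The 6 enzyme genes of amino acid synthesis and mitochondrial folate metabolism moved in both directions, with 2 higher and 3 lower. PHGDH, PSAT1 and PSPH encode the successive steps from a glycolytic intermediate to serine, and SHMT2 and MTHFD2 pass its carbon into mitochondrial folate. PSPH, the phosphatase of the last step, stood at 89.9, 94.3 and 91.9 CPM (dasatinib set) and 61 and 58.8 CPM (Dasa set) for T348I samples, against 120.3, 115 and 116 CPM (dasatinib set) and 85.9 CPM (Dasa set) for WT samples. T348I lay below WT within both sets, while WT Dasa replicate 1 lay below the T348I samples of the dasatinib set. For PSPH the log2 fold of T348I over WT was -0.40 (SE 0.0411, edgeR adjusted p = 2.31e-07), the furthest below 0 of the 35 members. PHGDH, the first enzyme of the path, fell by 0.31 log2 to 17.3 ± 1.45 CPM in T348I samples, against 21 ± 2.52 CPM in WT samples (SD, n = 5 and 4, edgeR adjusted p = 0.00101). PSAT1, the aminotransferase between them, had a log2 fold change of 0.04 and did not pass.

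ASNS, asparagine synthetase and a standard reporter of ATF4, was lower in T348I samples, and MTHFD2 was higher. ASNS held 110.5, 112 and 109 CPM (dasatinib set) and 100.1 and 89.6 CPM (Dasa set) for T348I samples, against 127, 125 and 129.8 CPM (dasatinib set) and 95.4 CPM (Dasa set) for WT samples. The groups separated in the dasatinib set and overlapped in the Dasa set. On the log2 scale ASNS differed by -0.14 (SE 0.044, edgeR adjusted p = 0.0126), and without WT dasatinib replicate 3 it was -0.12 and the call was lost (edgeR adjusted p = 0.0514). MTHFD2 held 206, 211 and 211 CPM (dasatinib set) and 174 and 166 CPM (Dasa set) for T348I samples, against 182, 184 and 196 CPM (dasatinib set) and 131 CPM (Dasa set) for WT samples. T348I exceeded WT within both sets, and WT Dasa replicate 1 was the lowest sample. MTHFD2 had a log2 fold of 0.23 (SE 0.0429, edgeR adjusted p = 0.00029), and SHMT2 rose by 0.14 log2. GENCODE 29 lists 7 pseudogenes named after MTHFD2, 4 each after ASNS, ATF4 and PSAT1, 2 after SLC7A5 and 1 each after PSPH, XBP1 and AARS1. In gene counts made by STAR, reads shared with such copies count for no gene, so the levels of these genes are uncertain.

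Of the 3 genes of amino acid uptake and tRNA charging, SLC7A5 rose. SLC7A5 encodes LAT1, the importer of large neutral amino acids, and SLC3A2 the heavy chain that carries it to the membrane. SLC7A5 stood at 539, 590.4 and 577 CPM (dasatinib set) and 884 and 931 CPM (Dasa set) for T348I samples, against 457, 451 and 482 CPM (dasatinib set) and 545 CPM (Dasa set) for WT samples. T348I exceeded WT within both sets, and the 2 T348I samples of the Dasa set stood far above the rest. For SLC7A5 the log2 fold of T348I over WT was 0.43 (SE 0.0619, edgeR adjusted p = 1.5e-05). SLC3A2 held 243, 261 and 251 CPM (dasatinib set) and 283 and 284 CPM (Dasa set) for T348I samples, against 256, 272 and 259.7 CPM (dasatinib set) and 229 CPM (Dasa set) for WT samples. Its groups overlapped in the dasatinib set and separated upward in the Dasa set, and it did not pass (log2 fold change 0.05, edgeR adjusted p = 0.471). AARS1, alanyl-tRNA synthetase, had a log2 fold change of -0.05 and did not pass.

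Of the 6 feedback and stress effector genes, 5 rose. SESN2 encodes sestrin 2, which restrains mTORC1 when leucine is short (chromosome 1, 28259527 to 28282491, plus strand). It stood at 37.8, 36.9 and 35.4 CPM (dasatinib set) and 42.2 and 43.4 CPM (Dasa set) for T348I samples, against 26.6, 25 and 24.8 CPM (dasatinib set) and 22.1 CPM (Dasa set) for WT samples. All 5 T348I samples lay above all 4 WT samples, and T348I samples of the Dasa set were the highest. On the log2 scale SESN2 differed by 0.65 (SE 0.0681, edgeR adjusted p = 2.62e-07). PPP1R15A encodes GADD34, the phosphatase subunit that restores eIF2. It held 68.4, 70.2 and 67 CPM (dasatinib set) and 71.9 and 81.1 CPM (Dasa set) for T348I samples, against 57, 56.9 and 55.8 CPM (dasatinib set) and 43.3 CPM (Dasa set) for WT samples. Again no sample of one group reached the other. PPP1R15A had a log2 fold of 0.44 (SE 0.072, edgeR adjusted p = 6.59e-05) and 0.29 without WT Dasa replicate 1 (edgeR adjusted p = 2.08e-05).

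CHAC1, a glutathione-degrading enzyme gene induced by ATF4 and CHOP, held 27.1, 29.7 and 28.6 CPM (dasatinib set) and 25 and 22.1 CPM (Dasa set) for T348I samples, against 23.4, 22.6 and 21.3 CPM (dasatinib set) and 9.63 CPM (Dasa set) for WT samples. T348I exceeded WT within both sets, and WT Dasa replicate 1 was far below every other sample. For CHAC1 the log2 fold of T348I over WT was 0.57 (SE 0.109, edgeR adjusted p = 0.000323) and 0.36 without that sample (edgeR adjusted p = 0.000105). TRIB3, a pseudokinase that inhibits ATF4 and CHOP, rose by 0.28 log2, and DDIT4, an mTORC1 inhibitor, by 0.24 log2, or 0.37 in counts made without regard to strand. VLDLR, the lipoprotein receptor gene of the arm, was the lowest member, at 2.03 ± 0.262 CPM in T348I samples and 2.6 ± 0.584 CPM in WT samples (SD, n = 5 and 4) and did not pass (log2 fold change -0.28).

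**Figure D2:**
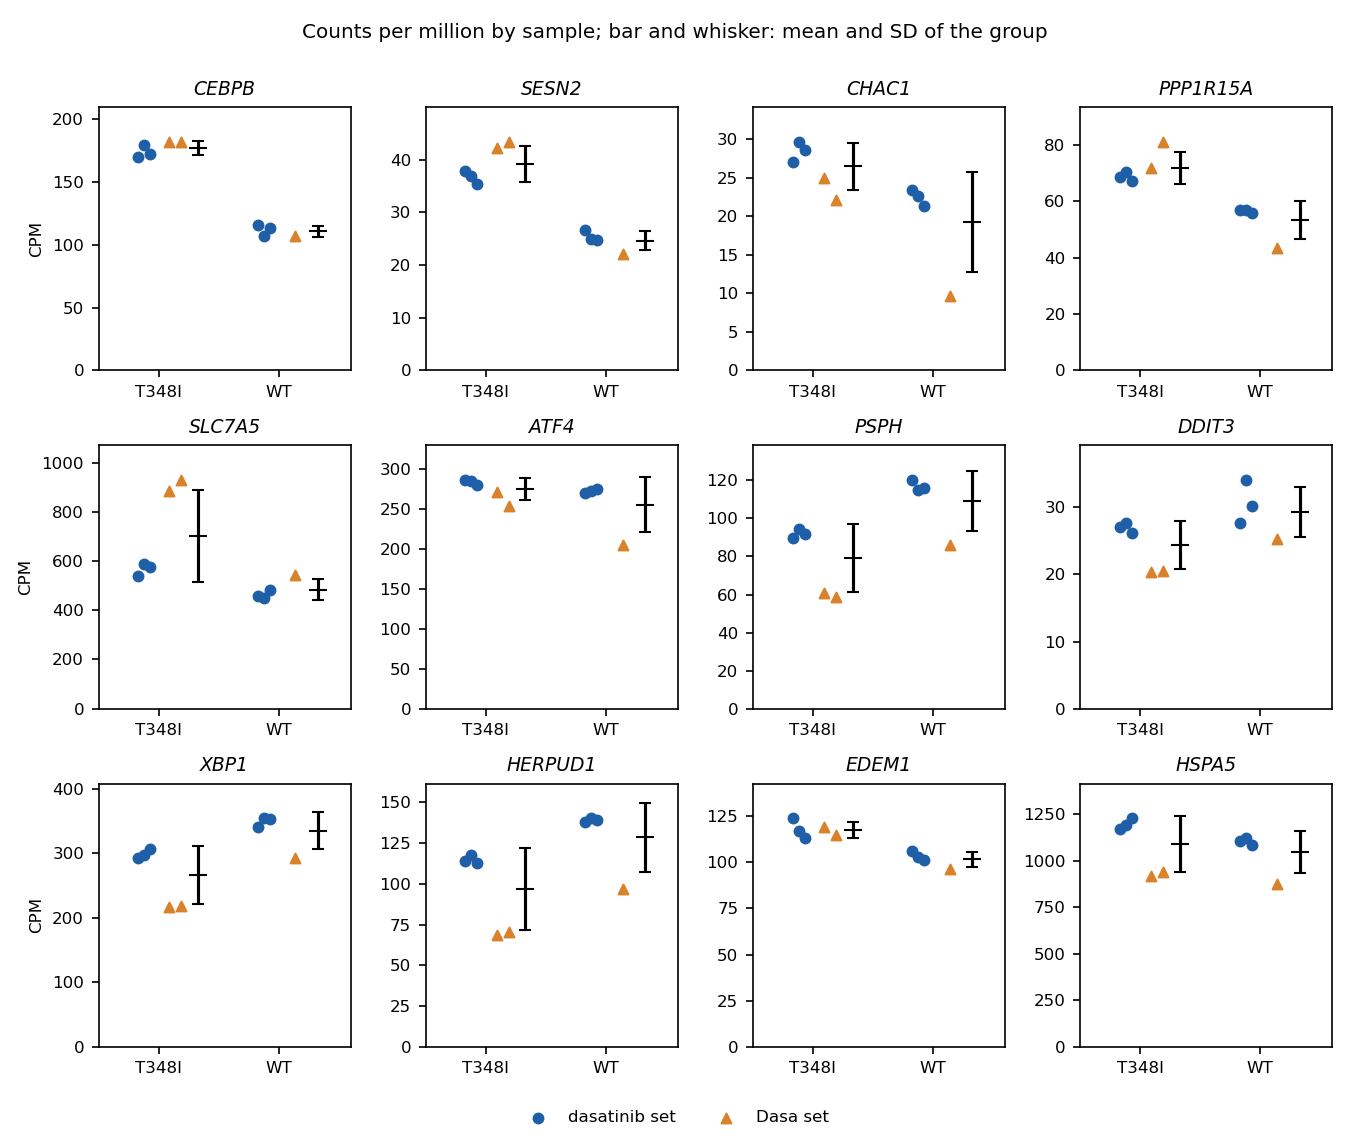
CPM in each sample for 12 members, T348I left and WT right in each panel, circles for the dasatinib set and triangles for the Dasa set, with the group mean and SD beside the points. CEBPB, SESN2, PPP1R15A and EDEM1 separate the groups completely, whereas PSPH, XBP1 and HERPUD1 separate them downward only within each set.

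Chaperones of the endoplasmic reticulum were nearly level between T348I and WT samples. HSPA5 encodes BiP, the Hsp70 chaperone that holds the stress sensors inactive. It stood at 1168, 1192 and 1229 CPM (dasatinib set) and 917 and 940.5 CPM (Dasa set) for T348I samples, against 1105, 1121 and 1082 CPM (dasatinib set) and 876 CPM (Dasa set) for WT samples. T348I exceeded WT within both sets by less than the gap between the sets. On the log2 scale HSPA5 differed by 0.11 (SE 0.0377, edgeR adjusted p = 0.0276). The call was lost without T348I dasatinib replicate 2 (0.11) or 3 (0.09) and without WT dasatinib replicate 1 (0.11) or 3 (0.10). HSP90B1 (GRP94), CALR (calreticulin), HYOU1 (an Hsp110-type exchange factor) and SDF2L1 (a BiP cofactor) did not pass, with log2 fold changes of 0.09, -0.06, 0.02 and 0.0015. HSP90B1 gained a call without WT Dasa replicate 1 (0.14, edgeR adjusted p = 0.000887), in the dasatinib set alone (0.15, edgeR adjusted p = 0.000884) and with DESeq2 (0.095, adjusted p = 0.0298). HYOU1 gained one without WT Dasa replicate 1 (0.09, edgeR adjusted p = 0.0356) and in the dasatinib set alone (0.09, edgeR adjusted p = 0.0375). HYOU1 held 723, 716 and 757 CPM (dasatinib set) and 538 and 550.4 CPM (Dasa set) for T348I samples, against 679, 688 and 702 CPM (dasatinib set) and 589.9 CPM (Dasa set) for WT samples. T348I lay above WT in the dasatinib set and below it in the Dasa set.

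Co-chaperones and disulfide isomerases changed little and in both directions. MANF, a secreted stress-induced factor, rose by 0.13 log2 and PDIA6, a disulfide isomerase that also restrains IRE1, by 0.11 log2. PDIA6 held 1058, 1072 and 1098 CPM (dasatinib set) and 794 and 801 CPM (Dasa set) for T348I samples, against 975, 1024 and 977 CPM (dasatinib set) and 742 CPM (Dasa set) for WT samples, and T348I exceeded WT within both sets (edgeR adjusted p = 0.0188). DNAJB9 (ERdj4, a BiP co-chaperone) fell by 0.12 log2 and CRELD2, an isomerase-like protein, by 0.19 log2. CRELD2 held 35.7, 33.1 and 35.1 CPM (dasatinib set) and 25.3 and 27.9 CPM (Dasa set) for T348I samples, against 32.7, 39.7 and 36.6 CPM (dasatinib set) and 36.7 CPM (Dasa set) for WT samples. Its groups overlapped in the dasatinib set, and both T348I samples of the Dasa set lay below every WT sample (edgeR adjusted p = 0.0455). DNAJC3, the PERK inhibitor p58IPK, had a log2 fold change of -0.07 and PDIA4 of -0.02, and neither passed. These calls lay near the threshold. With DESeq2, MANF (adjusted p = 0.0759), DNAJB9 and CRELD2 (adjusted p = 0.0756 in each) were not called, and without a filter on low counts MANF was not (edgeR adjusted p = 0.0914). CRELD2 was -0.06 and DNAJB9 -0.06 without WT Dasa replicate 1, likewise within the dasatinib set by itself, and neither was then called. CRELD2 also lost its call without T348I dasatinib replicate 2 (-0.19), T348I Dasa replicate 1 (-0.14) or 2 (-0.18), or WT dasatinib replicate 2 (-0.16) or 3 (-0.20). DNAJB9 lost its call without T348I dasatinib replicate 1 (-0.10), T348I Dasa replicate 1 (-0.12) or 2 (-0.09), or WT dasatinib replicate 2 (-0.12). MANF lost its call without T348I dasatinib replicate 1 or 2 or WT dasatinib replicate 1 or 2 (0.13 in each), and PDIA6 without T348I dasatinib replicate 3 (0.10) or WT dasatinib replicate 1 or 3 (0.11 in each).

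The clearest changes of the endoplasmic reticulum arm were in degradation factors and in XBP1. HERPUD1 encodes HERP, an organiser of the HRD1 degradation complex (chromosome 16, 56932048 to 56944863, plus strand). It stood at 114, 118 and 113 CPM (dasatinib set) and 68.4 and 70.4 CPM (Dasa set) for T348I samples, against 138, 140.4 and 139 CPM (dasatinib set) and 96.6 CPM (Dasa set) for WT samples. T348I lay below WT within both sets, and the WT sample of the Dasa set lay below the T348I samples of the dasatinib set. HERPUD1 had a log2 fold of -0.33 (SE 0.041, edgeR adjusted p = 2.35e-06). EDEM1, which hands misfolded glycoproteins to degradation, moved the other way (chromosome 3, 5187646 to 5219957, plus strand). It held 124, 117 and 113 CPM (dasatinib set) and 119 and 115 CPM (Dasa set) for T348I samples, against 106, 103 and 101 CPM (dasatinib set) and 96.6 CPM (Dasa set) for WT samples. All T348I samples lay above all WT samples, with a log2 fold change of 0.22 and a standard error of 0.0396 (edgeR adjusted p = 0.000157). SEL1L, the adaptor of the HRD1 complex, fell by 0.10 log2 (edgeR adjusted p = 0.0432), a call lost in 12 of 17 alternatives. Among them were 7 left-out libraries: T348I dasatinib replicates 2 (-0.11) and 3 (-0.08), both T348I Dasa replicates (-0.10 in each), WT dasatinib replicates 2 (-0.08) and 3 (-0.12), and WT Dasa replicate 1 (-0.09).

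XBP1, whose mRNA is spliced by IRE1 into the message of an active factor, held 293, 297 and 307 CPM (dasatinib set) and 217 and 218 CPM (Dasa set) for T348I samples, against 341, 355 and 353 CPM (dasatinib set) and 293 CPM (Dasa set) for WT samples (chromosome 22, 28794555 to 28800597, minus strand). T348I lay below WT within both sets, and the lowest values were the T348I samples of the Dasa set. For XBP1 the log2 fold of T348I over WT was -0.29 (SE 0.04, edgeR adjusted p = 9.03e-06). A count per gene cannot tell spliced from unspliced XBP1. HSPA5 and XBP1, which both hold an ERSE match upstream, had log2 folds of opposite sign, as did CHAC1 and ASNS, which both hold TGATGNAA. These pairs were picked for their signs, and HSPA5 lost its call in 6 and ASNS in 3 of 17 alternatives. Of the other ERSE holders CRELD2 fell, and HSP90B1 and CALR did not pass. Of the other TGATGNAA holders HERPUD1 fell, and SLC3A2 and AARS1 did not pass. The part of the elements in these folds was not tested.

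The difference between T348I and WT was not the same in both sets for 10 of the 35 members, beside 7.33% of all 14617 genes (edgeR interaction of set and group, adjusted p below the threshold). The share among genes with a mean of at least 10 CPM, where most members lie, is not given for the interaction and may be higher. The Dasa set holds 1 WT sample, which is taken to vary like the others, and every interaction call rests on it. In 7 genes of the ATF4 arm the log2 fold was more positive in the Dasa set. CHAC1 had a log2 ratio of 1.29 in the Dasa set and 0.35 in the dasatinib set, a fitted difference of 0.94 (edgeR interaction adjusted p = 5.58e-05). The fitted differences were 0.54 for PPP1R15A, 0.44 for SLC7A5, 0.43 for SESN2, 0.36 for SLC3A2, 0.30 for ATF4 and 0.22 for MTHFD2. In 3 genes of the endoplasmic reticulum arm it was more negative, by -0.40 in CRELD2, -0.21 in XBP1 and -0.20 in HYOU1. Of these calls, those of ATF4, CHAC1, PPP1R15A, SLC3A2 and SLC7A5 held under RLE scaling, no filter and each of 8 left-out libraries. Leaving out WT Dasa replicate 1 leaves no interaction to fit. SESN2 lost its call without T348I Dasa replicate 2 (0.40, edgeR interaction adjusted p = 0.0564). CRELD2 lost it without T348I dasatinib replicate 3 (-0.39), T348I Dasa replicate 1 (-0.33) or WT dasatinib replicate 1 (-0.33). HYOU1 lost it without any one of 6 libraries (T348I dasatinib replicate 3, both T348I Dasa replicates, and the 3 WT dasatinib replicates), at -0.22 to -0.18. MTHFD2 lost it without any one of the T348I dasatinib replicates, T348I Dasa replicate 1, or WT dasatinib replicate 2 or 3, at 0.18 to 0.23, and with no filter on low counts (0.22, edgeR interaction adjusted p = 0.073). XBP1 lost it without T348I dasatinib replicate 3, either T348I Dasa replicate, or WT dasatinib replicate 1 or 3, at -0.21 to -0.19, and with no filter (-0.20, edgeR interaction adjusted p = 0.0714). YES1 transcript also differed more between groups in the Dasa set, as given above, and its part in these differences was not tested.

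**Figure D3:**
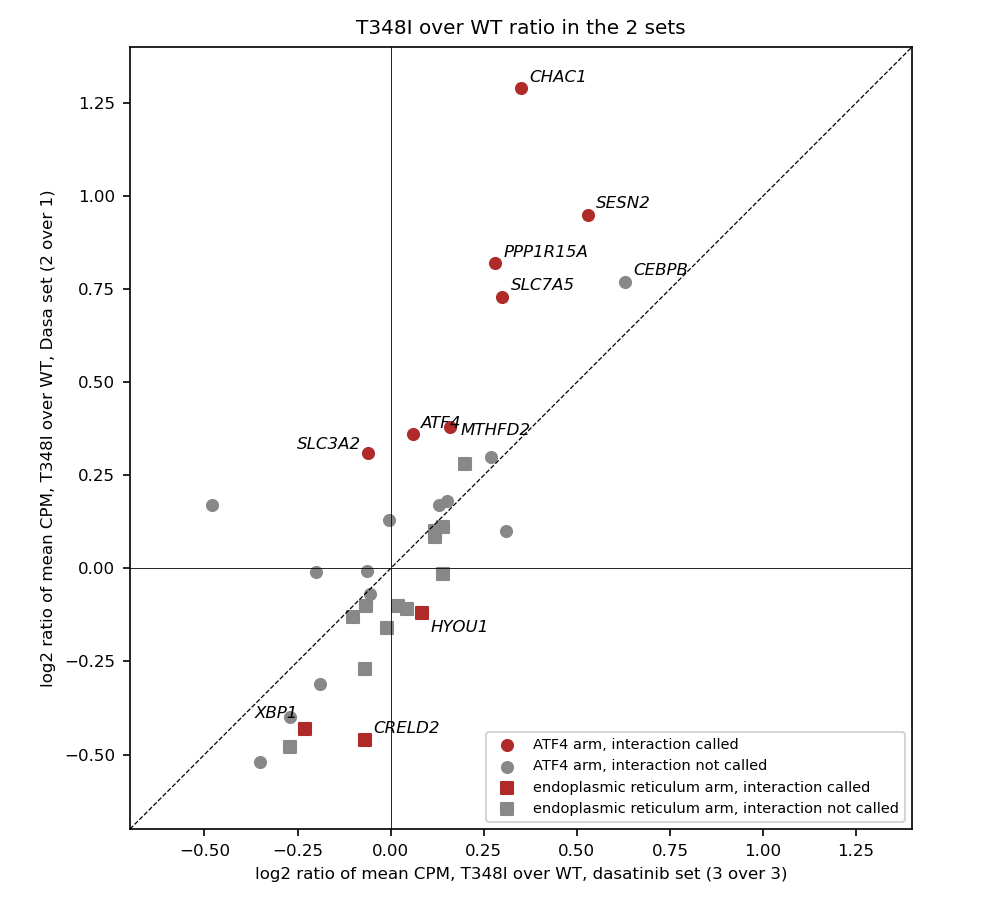
Log2 ratio of mean CPM, T348I over WT, in the dasatinib set (horizontal, 3 samples over 3) and the Dasa set (vertical, 2 over 1) for the 35 members, circles for the ATF4 arm and squares for the endoplasmic reticulum arm. On the dashed line both ratios are equal; the labelled red points have a called interaction, with CHAC1 furthest from the line at 1.29 in the Dasa set and 0.35 in the dasatinib set, and CEBPB is labelled for comparison.

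The members also differed between the sets with genotype held fixed, mostly downward in the Dasa set: 26 of 35 were called, beside 58.6% of all genes. The share among genes with a mean of at least 10 CPM is not given here either. In the endoplasmic reticulum arm 13 of 15 genes were lower in the Dasa set and 0 were higher, beside 29% lower and 29.7% higher over all genes, with a median log2 difference of -0.35 (Dasa over dasatinib). The drop was not particular to the arm. Of 32 further endoplasmic reticulum folding and quality control genes, 25 were lower and 1 higher (median -0.30). Of 19 cytoplasmic aminoacyl-tRNA synthetases, 12 were lower and 0 higher (median -0.20). MANF fell by 0.85 log2 and DNAJB9 by 0.81 log2 on this comparison, and HSP90B1 (-0.08) and EDEM1 (-0.04) did not pass. In the ATF4 arm 11 of 20 were lower and 2 higher, with a median of -0.21. SLC7A5 was higher by 0.51 and PHGDH by 0.23 log2, while PSPH and CHAC1 were lower by 0.55 and 0.54 log2. In 25 of 35 members the log2 difference between sets was larger in size than that between T348I and WT. That count was not made over all genes, so it is no trait of the members. Over all genes 58.6% were called between sets and 42.5% between T348I and WT. Whatever separates the sets, the higher mitochondrial share and the lower share of reads mapped to several places included, cannot be told apart from the spelling.

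**Figure D4:**
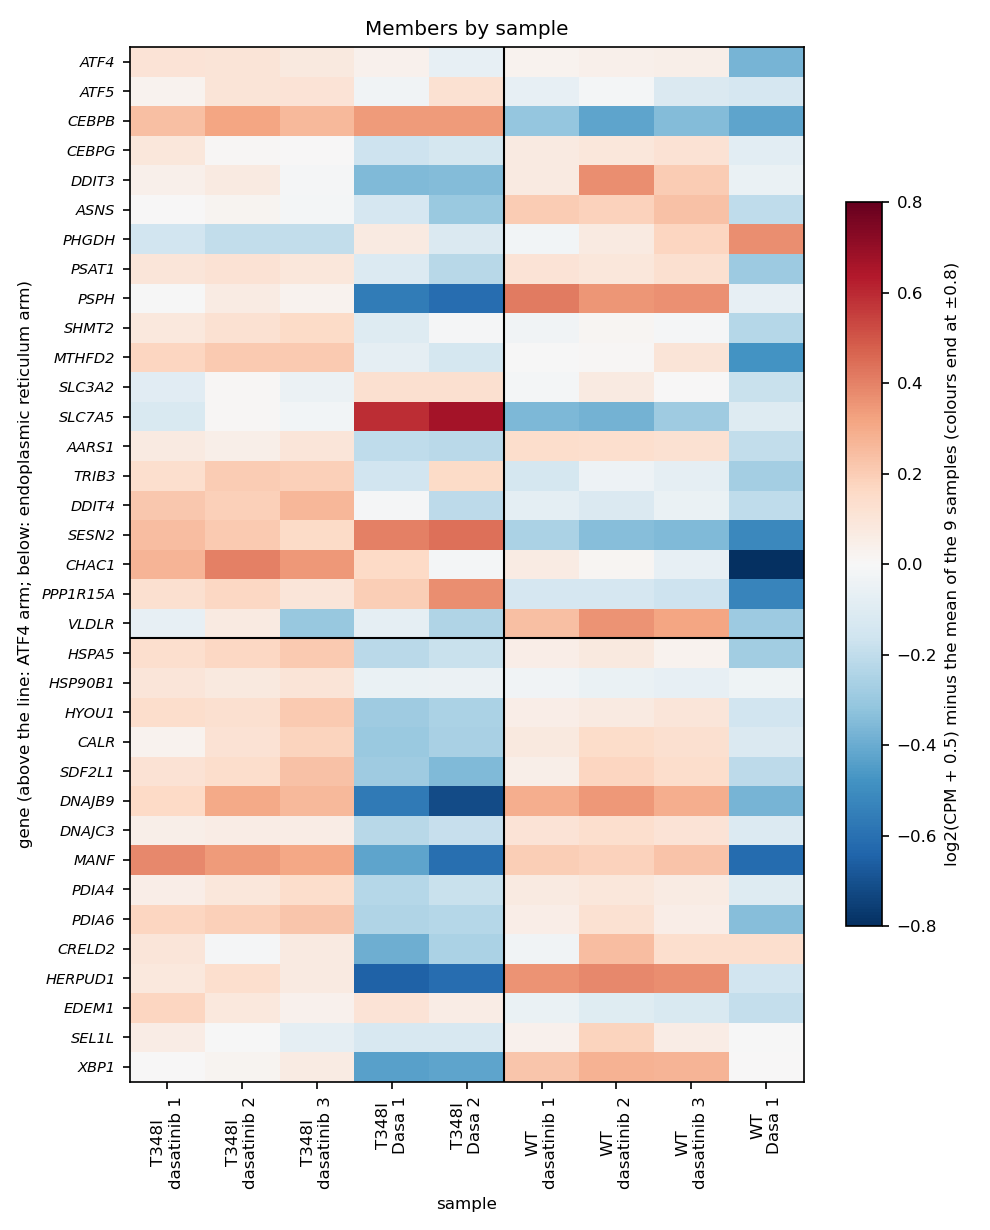
Log2(CPM + 0.5) of each member in each sample minus its mean over the 9 samples, T348I samples left of the vertical line and WT right, ATF4 arm above the horizontal line. The 3 samples of the Dasa set are lower than the rest for most endoplasmic reticulum genes, MANF and DNAJB9 most, while CEBPB and SESN2 split at the vertical line.

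Other genes of the same pathways were described from lists that hold no member. The shares to set beside the counts of each list, here and in the next paragraph, are 20.7% higher and 21.8% lower over all genes. Of 16 sensors and genes of eIF2 control, 5 rose and 4 fell. ERN1, which encodes IRE1, rose by 0.28 log2 and EIF2AK2, the RNA-sensing kinase PKR, by 0.25 log2, whereas EIF2AK4, the amino acid sensor GCN2, fell by 0.22 log2. EIF2B2, a subunit gene of the exchange factor of eIF2, rose by 0.25 log2. Of 21 tested further ATF4 targets, 8 rose and 8 fell, with a median log2 fold change of -0.07. Stress-responsive NUPR1 fell by 1.46 log2, to 13.3 ± 0.483 CPM in T348I samples, against 36.1 ± 4.58 CPM in WT samples, and KLHL24 fell by 0.77 log2 (SD, n = 5 and 4). The cytokine gene GDF15 rose by 0.80 log2, with 521 ± 66.5 CPM in T348I samples and 313 ± 52.1 CPM in WT samples (SD, n = 5 and 4). SLC38A2, a transporter of small neutral amino acids, rose by 0.81 log2. Over the 8 named genes edgeR gave an adjusted p of 2.32e-12 (NUPR1) to 0.00424 (EIF2B2). Without the set term ERN1 (0.38, edgeR adjusted p = 0.223) and EIF2AK4 (-0.26, edgeR adjusted p = 0.0617) were not called.

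Cytoplasmic aminoacyl-tRNA synthetases moved little, with 3 of 19 higher and 3 lower and no fold beyond -0.16 or 0.18. They were called in 31.6%, beside 42.5% of all genes. GARS1 and EPRS1 each fell by 0.16 log2, HARS1 rose by 0.18 log2 and KARS1 by 0.15. Of 11 tested folate genes, 4 rose and 3 fell. MTHFD1L, the mitochondrial formate enzyme, and SLC25A32, the mitochondrial folate carrier, rose by 0.30 and 0.26 log2, as did thymidylate synthase, TYMS, by 0.16 log2. Of 32 further endoplasmic reticulum folding and quality control genes, 5 rose and 11 fell, at a median log2 fold of -0.075. CREB3L3, a liver transcription factor of the endoplasmic reticulum membrane, fell by 1.02 log2, to 17.3 ± 3.49 CPM in T348I samples, against 35.2 ± 4.38 CPM in WT samples (SD, n = 5 and 4). TXNDC11 fell by 0.24 log2 and KDELR2, a retrieval receptor, by 0.18 log2, while the isomerase gene FKBP14 rose by 0.28 log2. Without the set term GARS1, EPRS1, HARS1, KARS1, SLC25A32, TYMS, KDELR2 and FKBP14 were not called. Hepatoma markers moved beside these genes: 4 of 6 tested were lower in T348I samples (TF, ALB, AFP and APOA1), with a median log2 fold change of -0.60. In the dasatinib set the markers summed to 5678, 4699 and 5124 CPM in T348I samples and 4678, 4861 and 4622 CPM in WT samples. In the Dasa set they summed to 4577 and 4885 CPM in T348I samples and 7680.3 CPM in the WT sample. Their part in these results was not tested.

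Levels differed widely between members. Per kilobase of exon in GENCODE 29, for the 31 members whose identifier version matched, CALR was highest at 518 CPM per kb, followed by HSP90B1 at 357, HSPA5 at 274, PDIA4 at 247 and PDIA6 at 231. In the ATF4 arm SLC7A5 stood at 128 and ATF4 at 106, while TRIB3 was at 3.96 and VLDLR at 0.245. These are means over the 9 samples, and exon length counts every annotated exon of a gene.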

How the data were processed

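The authors deposited raw read counts per gene, 1 file per sample, and per the submitters' processing notes the tools were STAR 2.5.1b, CASAVA 1.8.2 and Trimmomatic 0.35, with build GRCh38. The sources used here do not give the annotation release or read filters. Column 4 was used, the sense strand of this stranded KAPA polyA kit. Rows that name no gene held 22.2% to 29.8% of reads and were left out. Among them, reads mapped to several places took 10.9% to 16.9% in the dasatinib set and 7.14% to 7.99% in the Dasa set. Reads outside annotated features took 5% to 5.8% in the dasatinib set and 9.1% to 9.78% in the Dasa set.

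Symbols came from a table of gene names, which matched 57392 of 58219 identifiers. Coordinates are from GENCODE 29 on GRCh38, where 55050 identifiers had the same version, and sequences from RefSeq (GRCh38.p14). Testing used edgeR 4.0.16 (R 4.3.3) with filterByExpr, TMM scaling and a quasi-likelihood F-test of group beside set, with Benjamini-Hochberg adjustment over all tested genes. Log2 folds are T348I over WT, standard errors derive from fold and F statistic, and CPM uses TMM-adjusted library sizes. The interaction of set and group was fitted in a further model. DESeq2 1.42.0 was an alternative, and the script was tested on simulated data. There the test recovered 34% of changes of 1.15-fold, 74% of 1.3-fold, 80% of 1.5-fold and 92% of 2-fold (50 genes each). A member that did not pass may therefore still differ by a small fold. Chi-square per gene between samples of 1 group and set was 1.49 to 3.1, where about 1 would be sampling noise. None of these pairs was therefore 1 library counted again. WT Dasa replicate 1 and pairs across the sets were not compared. The check cannot tell separate cultures from separate libraries of 1 culture.

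Members and lists were chosen with earlier results of these data known. Values in every sample are given for ATF4, DDIT3, ASNS, HSPA5, XBP1, the 4 genes of each arm with the smallest p and members with a called interaction. From each other list the 4 genes with the smallest p are named, except 1 gene that is not reported here. Genes of the marker lists and other members are named by their place in a count.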

Additional observations from a re-analysis of the deposited data

Results flagged for a closer look

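In 14 of 70 groups of samples (each member in T348I and in WT), 1 sample stood apart by Dixon's test. The chance rate of about 1 of 20 groups supposes samples of 1 kind, whereas each group here pools both sets. In 13 of the 14 the sample was WT Dasa replicate 1, the only WT sample of the Dasa set. A set difference, called in 26 of 35 members and 58.6% of all genes, can set a lone sample apart. The test cannot tell that from an unusual library, and the same count over all genes is not given. Its levels were 205 CPM for ATF4, 95.4 for ASNS, 118 for PSAT1, 85.9 for PSPH, 165 for AARS1, 9.63 for CHAC1 and 43.3 for PPP1R15A. In the endoplasmic reticulum arm they were 876 CPM for HSPA5, 79.9 for DNAJB9, 299.9 for DNAJC3, 31.3 for MANF, 752 for PDIA4 and 96.6 for HERPUD1. Each was below the 3 other WT samples. TRIB3 stood apart in T348I Dasa replicate 1, at 12.1 CPM.

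The T348I over WT difference itself differed between the sets in 10 members by the edgeR interaction test, beside 7.33% of all genes. The log2 difference, Dasa set minus dasatinib set, was 0.30 for ATF4, 0.22 for MTHFD2, 0.36 for SLC3A2, 0.44 for SLC7A5, 0.43 for SESN2, 0.94 for CHAC1 and 0.54 for PPP1R15A. It was -0.20 for HYOU1, -0.40 for CRELD2 and -0.21 for XBP1.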

How the results depend on the processing

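The counts of the ATF4 arm (11 higher, 4 lower) stayed within 1.5 times under RLE and upper quartile scaling, no filter, DESeq2, strandless counts, the dasatinib set alone and each left-out library (10 to 11 higher, 3 to 4 lower). Without the set term 3 were higher and 0 lower, and in the endoplasmic reticulum arm 1 higher and 0 lower. That model called 1234 genes higher and 1116 lower over all genes, and 8 and 8 in the other pathway lists. The endoplasmic reticulum arm (4 higher, 5 lower) was less stable: 4 higher and 2 lower with DESeq2, 6 higher and 2 lower in the dasatinib set alone, and 1 to 6 higher and 2 to 5 lower over the left-out libraries. The 4 higher with DESeq2 were not the same 4, since MANF was lost and HSP90B1 gained. Leaving out 1 library gave 2697 to 2958 higher and 2434 to 3000 lower over all genes, and 26 to 32 higher and 22 to 30 lower in the other pathway lists. The interaction was called in 6 to 9 members and the set difference in 24 to 29.

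Same-numbered T348I and WT samples of the dasatinib set did not deviate together (correlations -0.00775, -0.0763 and 0.00328 over 14617 genes). The numbers were therefore not taken as pairs in the main test. A small effect shared by same-numbered samples, or one in few genes, would not show in this check. With the replicate block the ATF4 arm had 10 higher and 3 lower, and the endoplasmic reticulum arm 2 higher and 2 lower. ATF4, ASNS, HSPA5, DNAJB9, PDIA6, CRELD2 and SEL1L were the 7 of 24 called members that it did not call.

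Sign changes were seen in members that did not pass the main test. SDF2L1 was -0.01 with upper quartile scaling, -0.0059 without a filter, -0.058 without the set term, -0.03 without T348I dasatinib replicate 3 and -0.031 without WT dasatinib replicate 1. HYOU1 was -0.018 without the set term and -0.0032 without T348I dasatinib replicate 3, and PSAT1 -0.015 without the set term. SLC3A2 was -0.053, and PDIA4 0.025, both in the dasatinib set alone and without WT Dasa replicate 1. PDIA4 was 2.9e-05 without T348I Dasa replicate 1. Over the left-out libraries SDF2L1 ran from -0.031 to 0.052, HYOU1 from -0.0032 to 0.091, SLC3A2 from -0.053 to 0.088 and PDIA4 from -0.038 to 0.025. The cause of these changes was not tested. All alternatives were planned. With 1 WT sample in the Dasa set, the fold within it has no replicate check.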

Other observations

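Cytosolic heat shock genes, a separate protein-folding response, were also measured. Of 11, 6 rose and 1 (HSPA1A, named after its value was seen) fell, with a median log2 fold change of 0.12. Over all tested genes 20.7% rose and 21.8% fell. The constitutive chaperone gene HSPA8 rose by 0.26 log2, its co-chaperone DNAJB1 by 0.23 log2, and the Hsp90 genes HSP90AA1 and HSP90AB1 by 0.22 and 0.21 log2 (edgeR adjusted p from 8.46e-05 to 0.000844). Of the same 11 genes, 10 were lower in the Dasa set than in the dasatinib set, beside 29% of all genes, with a median of -0.52 (Dasa over dasatinib). HSPA1A and HSPA1B are near-identical, so their counts are uncertain. Without the set term none of the 4 rises was called, with log2 fold changes of 0.17 for HSPA8, 0.14 for DNAJB1 and 0.16 for HSP90AA1 and HSP90AB1.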
